A study of Mus musculus with 12 samples.

Results

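In neutrophils, 10 receptor genes were followed here, namely the C-type lectin receptors Clec4d, Clec4e, Clec4n, Clec5a, Clec7a, Clec12a and Olr1 and the triggering receptors Trem1, Trem2 and Trem3. They were chosen by name, with earlier results of these data known, and all 10 were found among the 55335 genes listed in each library. RNA-seq was performed on neutrophils sorted as CD45+ CD11b+ Ly6G+ F4/80- cells after a CD11b enrichment, from 3 groups of 4 mice each, with 1 library per mouse. PyMT TANs (tumor-associated neutrophils) came from mammary tumors of FVB-PyMT mice, which express the polyoma middle T oncogene in the mammary gland. PyMT-Cxcr2-/- TANs came from mammary tumors of FVB-PyMT-Cxcr2-/- mice, in which the chemokine receptor Cxcr2 is deleted in the whole animal and not in neutrophils alone. WT BM neutrophils came from the bone marrow of FVB WT mice, which carry neither the oncogene nor the deletion. All mice were 10 weeks old and had SOPF housing, and the labels do not state their sex. Since the bone marrow mice bear no tumor and no bone marrow group lacks Cxcr2, the effects of tissue and of tumor cannot be told apart in these libraries.

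Pattern recognition receptors of the C-type lectin family bind sugars and lipids of microbes and molecules released by damaged cells. Most of the members carry no signalling motif of their own and pair with the adaptors Fcer1g or Tyrobp (DAP12), whose phosphorylated ITAM motifs recruit the kinase Syk and then the Card9-Bcl10-Malt1 complex. Clec7a (Dectin-1), the beta-glucan receptor, carries its own hemITAM. Clec12a is the exception among these genes, since its tail holds an inhibitory ITIM motif that recruits phosphatases, so that the name of activating receptors is not accurate for it. Olr1 (LOX-1), a scavenger receptor for oxidized lipoproteins, is also listed with the lectins for its fold, and does not use this adaptor pathway. In neutrophils, these receptors are known for antifungal defence and for the release of cytokines and oxidants.

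The libraries held 25032704 to 51351569 counts on genes. The Cxcr2 level was 8.97 to 10.1 CPM (counts scaled to the library size, with TMM normalization over the 12 libraries) in PyMT-Cxcr2-/- TANs, against 1030 to 1536 CPM in PyMT TANs and 1818 to 2250 CPM in WT BM neutrophils, as their genotypes say. Of the 10 neutrophil markers, 8 fell in both types of TANs compared to WT BM neutrophils, Ly6g among them. Cxcr2 is also one of the 8, and its fall in PyMT-Cxcr2-/- TANs is set by the genotype. Of all genes tested, 30.1% rose and 23.2% fell in PyMT TANs, and 34.4% rose and 25.1% fell in PyMT-Cxcr2-/- TANs. The 12 macrophage markers all rose in both types of TANs, with a summed level of 221 to 315 CPM in WT BM neutrophils, 2203 to 5247 CPM in PyMT TANs, and in PyMT-Cxcr2-/- TANs 2411 to 5041 CPM, and 0 of the 12 were at 0 in all libraries of a group. Among them, Ms4a7 and Fcgr1 averaged 0.0756 and 0.321 CPM in WT BM neutrophils. These passed the filter on low counts through the TANs, so that their rise followed from the filter. The summed level of the 7 epithelial markers was 0.0599 to 0.4 CPM in WT BM neutrophils, 32.7 to 252.2 CPM in PyMT TANs, and in PyMT-Cxcr2-/- TANs 57.9 to 187 CPM. The part that such cells may have in the levels of the receptors was not tested, and in bulk RNA fewer cells of a type and less RNA per cell cannot be told apart.

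All 7 lectin genes lie on mouse chromosome 6 (mm10, GENCODE M21), and no exon of theirs overlaps another gene. Clec4n (+ strand, 123229843 to 123247021), Clec4d (+ strand, 123262111 to 123275265) and Clec4e (- strand, 123281789 to 123289870) are neighbours, with gaps of 15.1 kb and 6.52 kb. Clec12a (+ strand, 129342691 to 129365303), Clec7a (- strand, 129461591 to 129472779) and Olr1 (- strand, 129485244 to 129507165) stand together 6053 kb farther on. Clec5a is apart from both groups (- strand, 40574894 to 40585821). Members of both neighbourhoods differed in direction or in size, as given below.

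Promoters of 8 of the 10 members, from 250 bases before to 50 bases after the start, were found in RefSeq (GRCm38.p6), with no entry for Clec4n and Trem3. They were searched on both strands for the letters GAGGAAGT (Ets/PU.1), TTGCNNAA (C/EBP), TGANTCA (AP-1), GGGANTTCC (NF-kappaB) and TTCNNNGAA (Stat), where N is any base. These are held by 3.28%, 10.8%, 7.93%, 1.69% and 8.47% of 27025 promoters of the same length. Clec4e and Olr1, which rose over 3-fold in both types of TANs, and Clec12a, which fell in both, are shown here for that contrast, with the matches in capitals.
Clec4e (chr6:123289822-123290121, - strand): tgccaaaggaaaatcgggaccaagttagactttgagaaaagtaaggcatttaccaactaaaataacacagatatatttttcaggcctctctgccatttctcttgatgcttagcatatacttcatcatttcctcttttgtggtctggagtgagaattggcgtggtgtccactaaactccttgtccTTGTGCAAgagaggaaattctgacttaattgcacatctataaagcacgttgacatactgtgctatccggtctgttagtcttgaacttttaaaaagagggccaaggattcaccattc
Olr1 (chr6:129507116-129507415, - strand): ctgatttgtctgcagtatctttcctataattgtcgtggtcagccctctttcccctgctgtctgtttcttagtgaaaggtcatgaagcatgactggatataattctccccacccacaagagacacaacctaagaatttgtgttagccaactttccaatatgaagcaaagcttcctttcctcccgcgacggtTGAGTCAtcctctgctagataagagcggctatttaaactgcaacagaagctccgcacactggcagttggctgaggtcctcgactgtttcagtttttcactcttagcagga
Clec12a (chr6:129349994-129350293, + strand): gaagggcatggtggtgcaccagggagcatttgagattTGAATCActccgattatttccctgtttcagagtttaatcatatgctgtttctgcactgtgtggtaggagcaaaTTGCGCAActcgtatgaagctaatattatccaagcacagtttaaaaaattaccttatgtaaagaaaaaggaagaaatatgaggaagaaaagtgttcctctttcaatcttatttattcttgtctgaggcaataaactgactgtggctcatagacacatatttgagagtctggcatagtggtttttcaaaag
The Clec4e promoter held 1 C/EBP match, 66 bases before the start. The Olr1 promoter held 1 AP-1 match, 60 bases before it. The Clec12a promoter held 1 C/EBP match and 1 AP-1 match, so that the 2 kinds of letters found in the genes that rose were also found in the one that fell. This RefSeq start of Clec12a lies inside the gene as GENCODE gives it. The promoters of Clec4d, Clec5a and Clec7a held none of the 5 in this window, which says nothing about the factors.

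To describe the receptors across tissues, PyMT TANs were first compared to WT BM neutrophils. Of the 7 members that passed the filter on low counts, Clec4d, Clec4e, Clec4n, Clec7a and Olr1 rose and Clec12a fell, at an adjusted p under 0.05 (quasi-likelihood test of edgeR, Benjamini-Hochberg adjusted over all genes) and a fold change of at least 1.5. Over all 17153 genes tested, 30.1% rose, 23.2% fell and 53.3% did either, and 58.2% had groups without overlap, so that changes were common in this comparison. The median log2 fold change of the 7 was 0.94, compared to 0.087 over all genes tested. Since the members were chosen with earlier results of these data known, this contrast is a description only. In the comparison of PyMT-Cxcr2-/- TANs with the same WT BM libraries, the same 5 lectins rose, and Clec5a fell in addition to Clec12a. There, 34.4% of 17732 genes rose, 25.1% fell, 59.5% did either and 65.8% had groups without overlap.

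**Figure D1:**
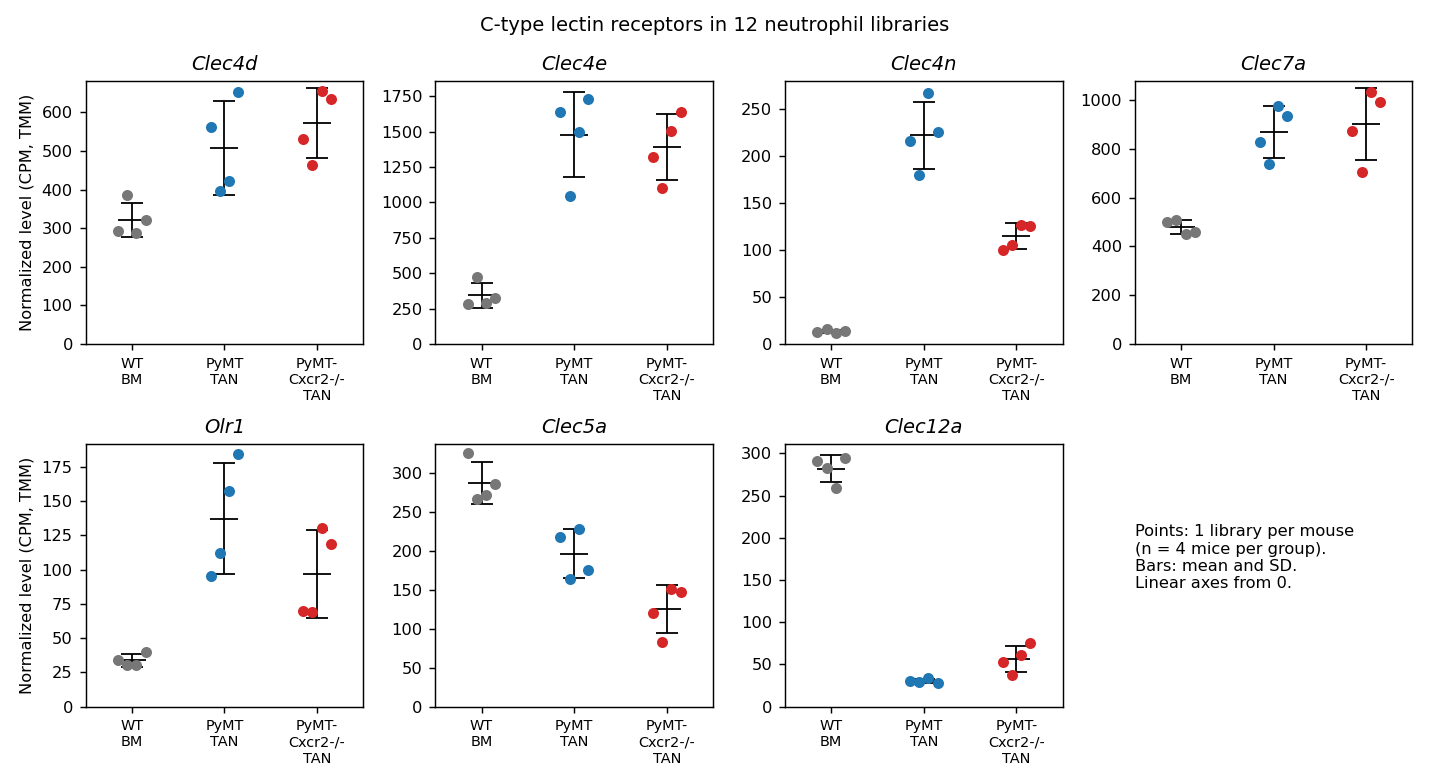
Normalized levels (y axis, CPM with TMM, linear from 0) of the 7 lectin receptors in each of the 12 libraries, by group on the x axis, with the mean and SD of 4 mice. Clec4n was at 11.8 to 15.5 CPM in WT BM neutrophils, 180 to 268 CPM in PyMT TANs, and in PyMT-Cxcr2-/- TANs 99.7 to 127 CPM, and Clec12a ran the opposite way.

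Clec4n (Dectin-2), which binds fungal mannans and signals through Fcer1g, showed the largest fold change among the 7 lectins in both types of TANs. Its level was 12.3, 15.5, 11.8 and 13.6 CPM in the 4 WT BM libraries. In PyMT TANs it was 216, 180, 268 and 226 CPM, and in PyMT-Cxcr2-/- TANs 99.7, 106, 127 and 126 CPM. The 3 groups did not overlap, with WT BM neutrophils lowest and PyMT TANs highest. Its RNA level was 17.7-fold higher in PyMT TANs than in WT BM neutrophils (log2 fold change 4.15, SE 0.17, adjusted p = 2.7e-08 by edgeR). In PyMT-Cxcr2-/- TANs it was 9.35-fold higher (log2 fold change 3.23, SE 0.12, adjusted p = 3.9e-10 by edgeR).

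Clec4e (Mincle), the receptor for mycobacterial cord factor and for a spliceosome protein released by dead cells, was at 283, 474, 293 and 325 CPM in WT BM neutrophils. It was at 1640, 1048, 1501 and 1729 CPM in PyMT TANs, and at 1322, 1102, 1507 and 1637 CPM in PyMT-Cxcr2-/- TANs. Every TAN library was above every WT BM library, while the 2 types of TANs overlapped over most of their range. The log2 fold change was 2.19 (SE 0.21) in PyMT TANs and 2.14 (SE 0.18) in PyMT-Cxcr2-/- TANs.

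Clec4d (MCL), which pairs with Clec4e and lies beside it, moved less. It was at 292, 385, 287 and 321 CPM in WT BM neutrophils, at 561, 396, 421 and 652 CPM in PyMT TANs, and at 531, 462, 656 and 635 CPM in PyMT-Cxcr2-/- TANs. The highest WT BM library (385 CPM) and the lowest PyMT TAN library (396 CPM) were close, without overlap. The log2 fold change was 0.74 (SE 0.17, adjusted p = 0.0033 by edgeR) in PyMT TANs and 0.95 (SE 0.14, adjusted p = 3.0e-05) in PyMT-Cxcr2-/- TANs. Without PyMT TAN replicate 4, the library where it was highest, the former was 0.58 and under the 1.5-fold limit.

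Clec7a was at 502, 509, 450 and 457 CPM in WT BM neutrophils, at 828, 737, 975 and 935 CPM in PyMT TANs and at 872, 707, 1034 and 994 CPM in PyMT-Cxcr2-/- TANs. Every TAN library lay above the WT BM libraries. The change was about the size of that of Clec4d, 1.92-fold (log2 fold change 0.94, SE 0.13) in PyMT TANs and 2.04-fold (log2 fold change 1.03, SE 0.13) in PyMT-Cxcr2-/- TANs. GENCODE lists the gene as a polymorphic pseudogene, a class for genes that are intact in some strains only.

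Olr1, in human blood a surface mark used to sort suppressive neutrophils, was at 34.4, 30.6, 30.1 and 39.9 CPM in WT BM neutrophils. In PyMT TANs it was at 95.7, 112, 158 and 184 CPM and in PyMT-Cxcr2-/- TANs at 69.7, 68.8, 130 and 119 CPM. Both types of TANs were above WT BM neutrophils in all libraries, and both varied by over 1.8 times within the group. The log2 fold change was 2.11 (SE 0.22) in PyMT TANs and 1.64 (SE 0.20) in PyMT-Cxcr2-/- TANs.

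Clec5a (MDL-1), a Tyrobp-coupled receptor known for binding dengue virus, was highest in WT BM neutrophils, at 325, 267, 271 and 286 CPM. It was at 218, 164, 228 and 176 CPM in PyMT TANs and at 120, 83.4, 151 and 147 CPM in PyMT-Cxcr2-/- TANs. The 3 groups did not overlap. The fall passed the test in PyMT-Cxcr2-/- TANs (log2 fold change -1.08, SE 0.16, adjusted p = 4.2e-05 by edgeR). In PyMT TANs, the log2 fold change was -0.47 (SE 0.14, adjusted p = 0.012 by edgeR), under the 1.5-fold limit, and with scaling by library totals it was -0.02.

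Clec12a (MICL), the inhibitory member, which binds uric acid crystals, was at 291, 283, 259 and 295 CPM in WT BM neutrophils. It was at 30.3, 29.7, 33.6 and 28.1 CPM in PyMT TANs and at 52.9, 37.7, 60.7 and 75.0 CPM in PyMT-Cxcr2-/- TANs. No groups overlapped, and the PyMT TAN libraries were within 1.19 times of each other. The level was 8.75-fold lower in PyMT TANs (log2 fold change -3.13, SE 0.12, adjusted p = 2.0e-08 by edgeR) and 4.60-fold lower in PyMT-Cxcr2-/- TANs (log2 fold change -2.20, SE 0.16, adjusted p = 1.1e-07). It thus went against its neighbours Clec7a and Olr1 on the chromosome. Clec4a2 (DCIR), an ITIM lectin among the other lectins, averaged 288.6 ± 15.1 CPM (SD, n = 4) in the WT BM libraries, with 40.6 ± 6.95 for PyMT TANs and 64.2 ± 14.7 for PyMT-Cxcr2-/- TANs, and fell in both comparisons with log2 fold changes of -2.75 (SE 0.15) and -2.05 (SE 0.14). ITIM lectins were not followed as a set. Clec12b of the same list averaged 0.812 to 1.15 CPM and was not called (log2 fold changes of 0.51 and 0.07).

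**Figure D2:**
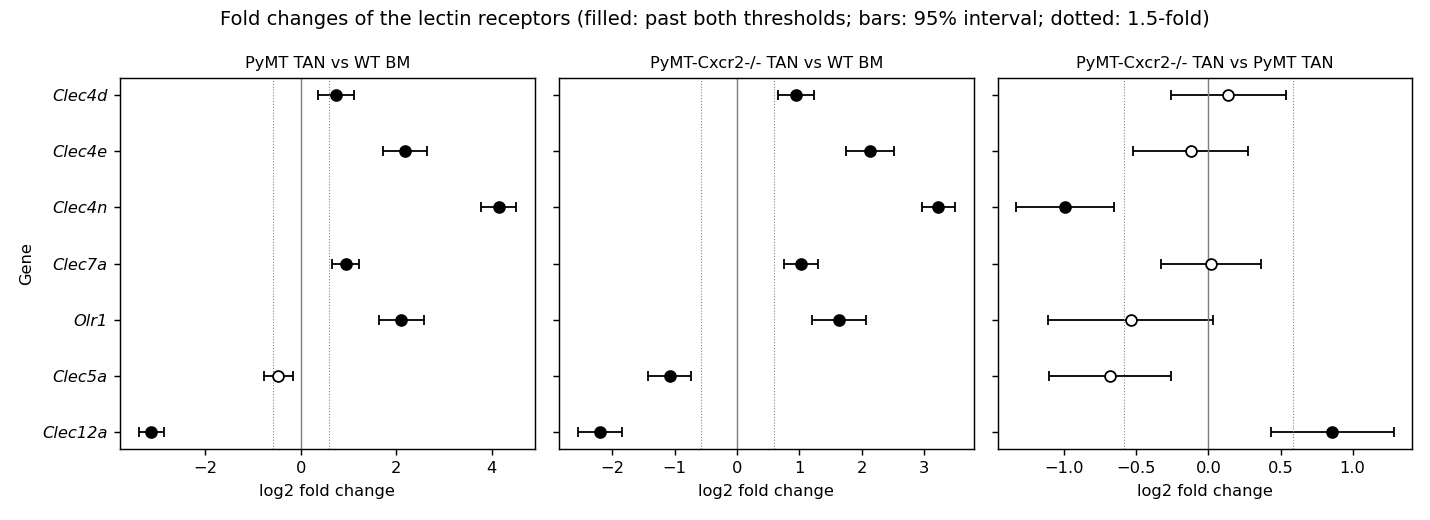
Log2 fold changes (x axis) of the 7 lectin receptors (y axis) in the 3 comparisons, with 95% intervals; filled points passed both thresholds and dotted lines mark 1.5-fold. The first 2 panels share the WT BM libraries, and in the third Clec4n (-0.99) and Clec12a (0.86) are the filled points.

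To describe how both types of TANs differ, PyMT-Cxcr2-/- TANs were next compared directly to PyMT TANs. The study reports that PyMT-Cxcr2-/- tumors were heavier and held more neutrophils and fewer macrophages. The lack of the receptor in neutrophils and these differences of the tumors cannot be told apart here. Of the 8 members past the filter, Clec4n fell and Clec12a rose in PyMT-Cxcr2-/- TANs, where 1.98% of 18463 genes were called, 0.596% lower and 1.38% higher. Clec4n was 1.99-fold lower (log2 fold change -0.99, SE 0.16, adjusted p = 0.013 by edgeR). Clec12a was 1.81-fold higher (log2 fold change 0.86, SE 0.19, adjusted p = 0.048). For both genes, all 4 libraries of a group stood on one side of the other group, as did 11.9% of the genes tested, and for both the PyMT-Cxcr2-/- TANs lay between PyMT TANs and WT BM neutrophils.

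The Clec4n call was kept when any 1 of the 8 libraries was left out (adjusted p of 0.016 to 0.047 by edgeR). It was lost without the 2 PyMT-Cxcr2-/- libraries with the most epithelial counts (log2 fold change -0.83, adjusted p = 0.089 by edgeR). The Clec12a call was less firm, since it was lost in 7 of the 8 fits that leave out 1 library (it was kept without PyMT-Cxcr2-/- TAN replicate 2), with log2 fold changes of 0.72 to 1.02 and adjusted p of 0.025 to 0.16. With DESeq2, both were called, with adjusted p of 5.0e-05 for Clec4n and 0.0034 for Clec12a. With a correction for GC content and gene length, both calls were lost (adjusted p = 0.087 for Clec4n and 0.15 for Clec12a by edgeR).

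Clec5a did not pass the test in this comparison, although its 2 groups did not overlap (log2 fold change -0.68, SE 0.19, adjusted p = 0.10 by edgeR). Scaled by library totals, it was called lower (-0.88, adjusted p = 0.018 by edgeR), as it was with the 12 libraries in one fit (-0.68, adjusted p = 0.032). Olr1 had a log2 fold change of -0.54 with a 95% interval from -1.12 to 0.03. For Clec4d the difference was 0.14 (95% interval -0.26 to 0.54), for Clec4e -0.12 (-0.52 to 0.28) and for Clec7a 0.02 (-0.33 to 0.37). These 3 intervals lie within the 1.5-fold limit on the log2 scale, while that of Olr1 does not. A p that misses the threshold does not show that the levels were alike.

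In each group, 1 library was often the lowest. It was PyMT TAN replicate 2 for 5 of the 7 lectins and PyMT-Cxcr2-/- TAN replicate 2 for 6 of them. Among WT BM neutrophils it was replicate 3, for 5 of the 7. The highest and lowest libraries of a group differed by 1.13 to 1.99 times for the 7 lectins. The mannose receptor Mrc1 varied 15.6-fold among PyMT TANs, from 15.7 CPM in replicate 1 to 245 CPM in replicate 3. Macrophage markers differed in this respect, from 1.59-fold for Csf1r, lowest in replicate 4, to 132-fold for Cd163. The levels of Clec4n in replicates 1 and 3 were 216 and 268 CPM, and the part of macrophages in them was not tested. In the PyMT TANs the summed macrophage markers were lowest in replicate 1 (2203 CPM) and highest in replicate 3 (5247 CPM).

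Levels of different genes were compared per kb of exon length. In PyMT TANs, Clec7a (329 ± 40.7 CPM per kb, SD, n = 4), Clec4d (317 ± 75.4) and Clec4e (298 ± 60.9) headed the order with overlapping ranges. They were followed by Clec4n (157 ± 25.2), then Clec5a (51.1 ± 8.14) and Olr1 (38.5 ± 11.4), which overlapped each other, and Clec12a (5.51 ± 0.415 CPM per kb). In PyMT-Cxcr2-/- TANs, Clec4d, Clec7a and Clec4e again overlapped at the head (357, 342 and 280 CPM per kb), Clec4n was at 80.7 ± 9.77 and Clec12a, last, at 10.2 ± 2.81 CPM per kb.

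In WT BM neutrophils the order differed. Clec4d (201 ± 28.2 CPM per kb) and Clec7a (182 ± 11.5) were first and overlapped, Clec5a (74.8 ± 6.93) and Clec4e (69.2 ± 17.9) overlapped next, and Clec12a came after them (51.0 ± 2.89 CPM per kb). Olr1 (9.45 ± 1.27) and Clec4n (9.38 ± 1.15) were last, without a gap between their ranges. In both types of TANs, by contrast, Clec4n was above Olr1 without overlap.

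**Figure D3:**
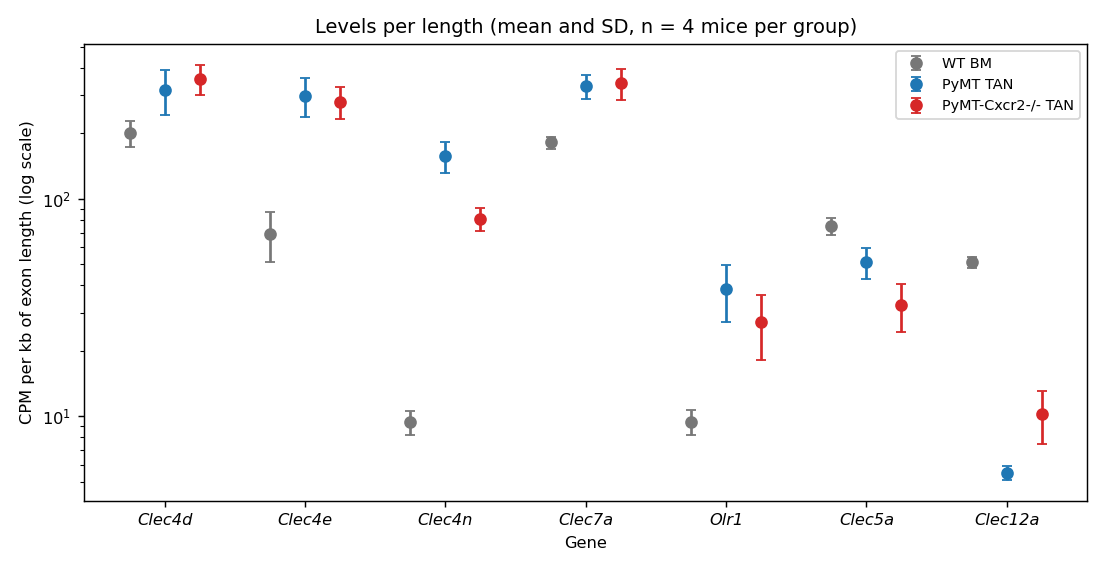
Mean level per kb of exon length (y axis, log scale) of the 7 lectin receptors (x axis) in the 3 groups, with the SD of 4 mice. Clec4n and Olr1 lie near 9.4 CPM per kb in WT BM neutrophils, and Clec12a goes from 51.0 there to 5.51 CPM per kb in PyMT TANs.

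The levels of the 3 Trem genes could not be read from these libraries. Trem1, which amplifies inflammatory signals of neutrophils through Tyrobp, had 0, 2, 0 and 0 counts in the WT BM libraries, 10, 20, 26 and 32 counts in PyMT TANs and 51, 48, 124 and 70 counts in PyMT-Cxcr2-/- TANs. Trem2, a lipid receptor of macrophages and microglia, was listed at 0 in 11 libraries and had 7 counts in PyMT-Cxcr2-/- TAN replicate 1. Trem3 was listed at 0 to 0.419 CPM. They lie on chromosome 17 (Trem1 from 48232768 to 48246924, Trem3 from 48247777 to 48258841 and Trem2 from 48346401 to 48354147, + strand), in a stretch of 1504 kb between Foxp4 and Mocs1 in which the 17 protein-coding genes held 619 counts in all over the 12 libraries.

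Nfya, a subunit of a transcription factor that most cells use, lies in this stretch and had 8 counts over the 12 libraries, and Oard1, a broadly used deacylase, had 4. The genes at the edges had 4305 (Foxp4) and 47162 (Mocs1) counts. The Trem-like genes Treml1 and Treml2 were at 0 in the 12 libraries, Treml4 had 13 counts in PyMT TAN replicate 3 and 2 in replicate 4 and was at 0 in the others, and Treml6 was not matched. Why the stretch holds so few counts was not tested. No level, direction or absence was therefore read for the Trem genes, although Trem1 passed the filter and was called higher in PyMT-Cxcr2-/- TANs than in WT BM neutrophils, and without the Trem genes 5 members rose there in place of 6.

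**Figure D4:**
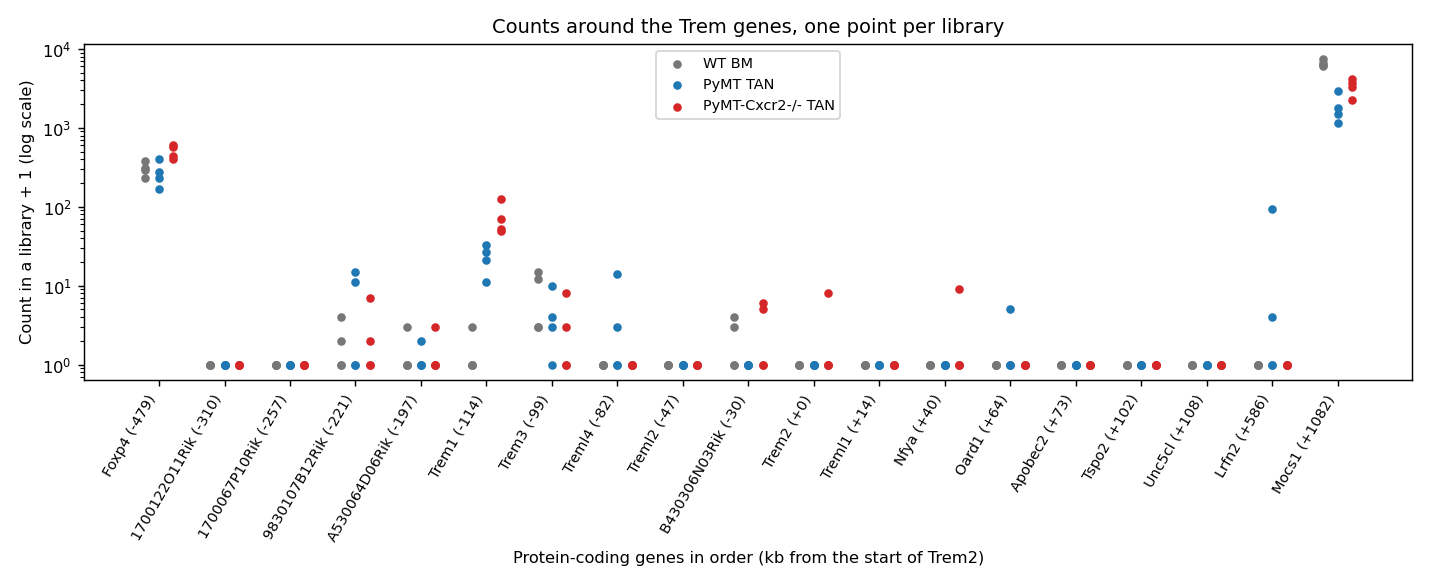
Counts plus 1 in each library (y axis, log scale) of the protein-coding genes around the Trem genes, in chromosome order with the distance in kb from the start of Trem2 (x axis). The points of most genes lie at 0 counts in most libraries, while Foxp4 and Mocs1 at the edges are above them in all libraries.

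The other lectins were described next by a list of 16 genes. In PyMT TANs 11 rose and 1 fell compared to WT BM neutrophils (median log2 fold change 1.87), and in PyMT-Cxcr2-/- TANs 11 rose and 2 fell (median 1.35). Of all genes tested, 30.1% rose and 23.2% fell in the former (median 0.087), and 34.4% rose and 25.1% fell in the latter (median 0.086). Among the genes that rose, Clec4b1, Mgl2 and Clec10a averaged 0.160, 0.262 and 0.510 CPM in WT BM neutrophils. They would not have passed the filter on low counts on these libraries alone, so that their rise followed in part from the filter. Several of the genes that rose mark macrophages and dendritic cells, such as Mrc1 (2.56 ± 0.944 CPM in WT BM neutrophils, 123 ± 116.9 in PyMT TANs and 92.6 ± 37.0 in PyMT-Cxcr2-/- TANs) and Clec10a. The 6 dendritic cell markers summed to 4.61 to 6.71 CPM in WT BM libraries, 8.90 to 18.8 CPM in PyMT TANs and 13.4 to 15.8 CPM in PyMT-Cxcr2-/- TANs, and with the macrophage markers given above their part was not tested. Clec2d, a ligand of an NK cell receptor, was at 101 ± 15.1, 106 ± 26.7 and 72.8 ± 6.82 CPM in these groups and was not called in any comparison. Cd69, an early activation antigen, was the 1 gene of the 16 called between the TANs by edgeR, where 1.98% of all genes were. DESeq2 also called Clec4a2, higher in PyMT-Cxcr2-/- TANs (log2 fold change 0.69, adjusted p = 0.043 by DESeq2, and 0.63, adjusted p = 0.12 by edgeR, without overlap). Cd69 was at 128, 102, 160 and 127 CPM in PyMT TANs, at 53.1, 33.2, 79.9 and 74.6 CPM in PyMT-Cxcr2-/- TANs and at 5.36 to 11.8 CPM in WT BM neutrophils. It was 2.20-fold lower in PyMT-Cxcr2-/- TANs (log2 fold change -1.14, SE 0.25, adjusted p = 0.045 by edgeR).

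The adaptors and kinases downstream of the receptors were taken next. Of 17 adaptors and kinases, 2 rose (Src and Malt1) and 9 fell in PyMT TANs, and 3 rose (Syk, Src and Malt1) and 6 fell in PyMT-Cxcr2-/- TANs, each compared to WT BM neutrophils. Over all genes tested, 30.1% rose and 23.2% fell in the former and 34.4% rose and 25.1% fell in the latter. The median log2 fold change was -0.74 in PyMT TANs and -0.26 in PyMT-Cxcr2-/- TANs. Src averaged 0.441 CPM in WT BM neutrophils, with 19, 21, 19 and 0 counts in these libraries. Src passed the filter on low counts through the TANs, so that its rise followed in part from the filter. The adaptor Tyrobp was at 1309, 1016, 997 and 1264 CPM in WT BM neutrophils, at 521, 457, 462 and 457 CPM in PyMT TANs and at 549, 478, 577 and 618 CPM in PyMT-Cxcr2-/- TANs. All TAN libraries were below the WT BM libraries, with log2 fold changes of -1.19 (SE 0.13) and -0.93 (SE 0.13). The other adaptor, Fcer1g, had log2 fold changes of -0.58 and -0.51, under the 1.5-fold limit in both.

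Syk, the kinase of the pathway, averaged 1226 ± 115.7 CPM (SD, n = 4) in the WT BM libraries, with 1538 ± 226 for PyMT TANs and 1851 ± 189 for PyMT-Cxcr2-/- TANs. It rose in PyMT-Cxcr2-/- TANs (log2 fold change 0.71, SE 0.12), and in PyMT TANs the log2 fold change was 0.41 (SE 0.13), under the limit. The Src family kinases Lyn and Fgr were not called in any comparison. Prkcd, the kinase that phosphorylates Card9, fell with log2 fold changes of -1.08 and -0.77.

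Plcg2, the phospholipase activated by Syk, was the 1 gene of the 17 called between the TANs by edgeR, where 1.98% of all genes were. Plcg2 was at 172, 205, 133 and 128 CPM in PyMT TANs, at 261, 252, 311 and 345 CPM in PyMT-Cxcr2-/- TANs and at 466 to 646 CPM in WT BM neutrophils. It was 1.79-fold higher in PyMT-Cxcr2-/- TANs than in PyMT TANs (log2 fold change 0.84, SE 0.18, adjusted p = 0.037 by edgeR), without overlap.

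**Figure D5:**
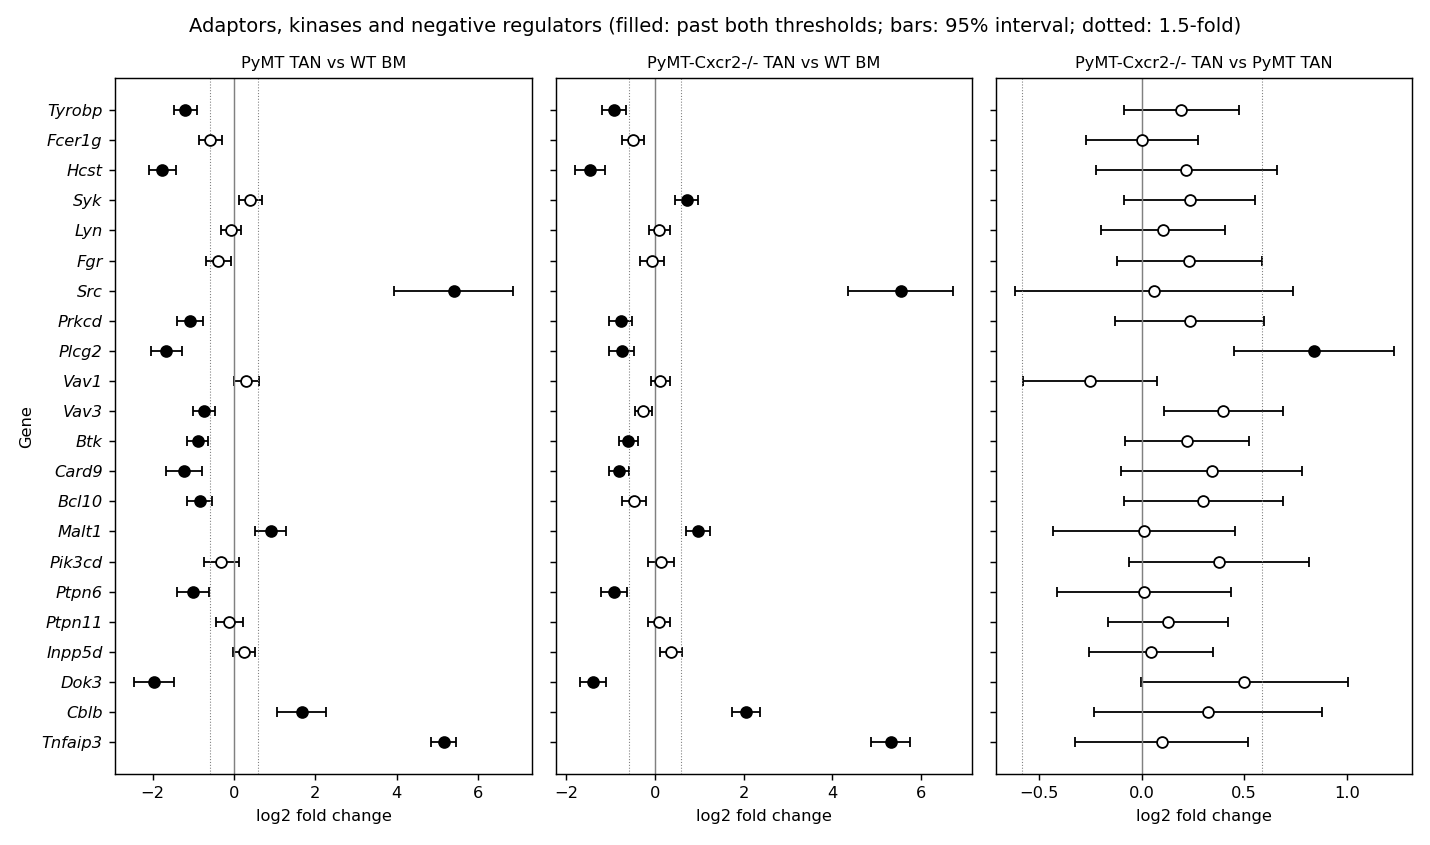
Log2 fold changes (x axis) with 95% intervals of 16 adaptors and kinases and 6 negative regulators (y axis) in the 3 comparisons; filled points passed both thresholds and dotted lines mark 1.5-fold. Most filled points of the adaptors and kinases lie below 0 against WT BM neutrophils, and Plcg2 is the filled point between the TANs.

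Of the 6 negative regulators, Cblb and Tnfaip3 rose and Ptpn6 and Dok3 fell in both types of TANs, with 0 called between the TANs by edgeR or DESeq2, and 0 with an unadjusted p under 0.05 by edgeR. The shares of all genes tested were 30.1% higher and 23.2% lower in PyMT TANs, and 34.4% higher and 25.1% lower in PyMT-Cxcr2-/- TANs. Between the TANs, 1.98% of all genes were called. Tnfaip3 (A20), a deubiquitinase that restrains NF-kappaB, went from 73.1 ± 3.75 CPM in WT BM neutrophils to 2449 ± 207 CPM in PyMT TANs, and in PyMT-Cxcr2-/- TANs 2683 ± 728 CPM. Ptpn6 (SHP-1), a phosphatase recruited by ITIM tails, was at 628 ± 72.0 CPM in WT BM neutrophils, 296 ± 71.4 CPM in PyMT TANs, and in PyMT-Cxcr2-/- TANs 305 ± 50.6 CPM.

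A list of 7 genes was drawn up for ligands of these receptors, and their binding to the receptors was not tested. Of the 7, Apoe and Clu rose in both types of TANs, and Pglyrp1, S100a8 and S100a9 fell. The shares of all genes tested were 30.1% higher and 23.2% lower in PyMT TANs, and 34.4% higher and 25.1% lower in PyMT-Cxcr2-/- TANs. Apoe is also one of the 12 macrophage markers and was at 877 to 2636 CPM in PyMT TANs, where their sum was 2203 to 5247 CPM, and Clu varied 16.3-fold among these libraries. Clu averaged 0.436 CPM in WT BM neutrophils and passed the filter on low counts through the TANs, so that its rise followed from the filter. Sap130, which codes for a Sin3A-associated protein and shares only its name with the spliceosome protein that Clec4e binds, fell in PyMT TANs with a log2 fold change of -0.74 (SE 0.11). Between the TANs, 3 were higher in PyMT-Cxcr2-/- TANs, as were 1.38% of all genes tested. They were Pglyrp1, a ligand of Trem1, with a log2 fold change of 1.29 (SE 0.23), S100a8 with 0.98 (SE 0.21) and S100a9 with 1.04 (SE 0.22). Pglyrp1 was at 1378 to 1909 CPM in WT BM neutrophils, 118 to 234 CPM in PyMT TANs, and in PyMT-Cxcr2-/- TANs 341 to 599 CPM, without overlap. These genes are also granule or cytosol proteins of neutrophils, and 5 of the 10 neutrophil markers, S100a8, S100a9 and Ly6g among them, were higher in PyMT-Cxcr2-/- TANs by edgeR.

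The cytokines and other genes that these receptors can induce were followed in a list of 17, most of which also respond to other receptors. All 14 that passed the filter rose in PyMT TANs, and all 15 in PyMT-Cxcr2-/- TANs, with median log2 fold changes of 3.89 and 3.80. Of all genes tested, 30.1% rose in the former and 34.4% in the latter. Il10, Il12b, Il23a and Cxcl1 averaged 0.0769, 0, 0.139 and 0.534 CPM in WT BM neutrophils. Where tested, these passed the filter through the TANs, so that their rise followed from the filter. Il1b, the most abundant, was at 794 ± 75.4 CPM in WT BM neutrophils, 8401 ± 849 CPM in PyMT TANs, and in PyMT-Cxcr2-/- TANs 8139 ± 1149 CPM. Between the TANs, 3 of 16 were lower in PyMT-Cxcr2-/- TANs by edgeR and 0 were higher by edgeR or DESeq2. By edgeR, 0.596% of all genes tested were lower and 1.38% higher. DESeq2 also called Il23a lower (log2 fold change -1.61, adjusted p = 0.0031), which had the largest fold change of the 16, -1.67 on the log2 scale with an adjusted p of 0.058 by edgeR, without overlap. Tnf had a log2 fold change of -1.25 (SE 0.24), Il1a of -1.39 (SE 0.23) and Ccl3 of -0.97 (SE 0.20), a difference for Ccl3 of about the size of that of Clec4n. Il1b was not called between the TANs (-0.08, SE 0.15).

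For each lectin, the genes with the most similar pattern over the 12 libraries were sought among 11091 genes, by the root mean square difference of centred log2 CPM. Clec7a was most like Ptafr, the receptor of platelet-activating factor (0.12), and Il1rn, the interleukin 1 receptor antagonist (0.12), with a root mean square of its own of 0.44. Clec4e was most like Oat (0.20) and the inflammasome sensor Nlrp3 (0.21). Clec12a was most like Dhrs7 (0.13) and Trp53inp2 (0.15), Clec4d like Fbxo11 (0.14) and Gm37691 (0.15), and Clec5a like Tmem140 (0.19) and Mis18a (0.20). Clec4n was most like Gm20186 (0.25) and Slfn5 (0.27), and Olr1 like Med21 (0.26) and Pp2d1 (0.31). Slfn5 was at 1.69 CPM in WT BM neutrophils, 22.6 CPM in PyMT TANs, and in PyMT-Cxcr2-/- TANs 16.4 CPM. These likenesses follow the 3 groups and share the libraries.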

How the data were processed

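Neutrophils of 3 groups of 4 mice were analyzed by RNA-seq. The authors removed ribosomal RNA and made directional libraries. Their trimmed paired-end reads were aligned with STAR to the mm10 build, and HTSeq gave the gene counts. The deposited values are raw counts per gene, without normalization. The annotation release and strand setting of the counting are not given in the sources used here. The authors' DESeq2 results were not used. The number of mice per group comes from the study, and the labels give each replicate as a separate sample.

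Of 55335 Ensembl identifiers, 55154 were matched to GENCODE M21, which gave symbols, positions and exon lengths. Comparisons were made with edgeR 4.0.16 in R 4.3.3 (TMM, filterByExpr, robust quasi-likelihood test) on the 2 groups compared, with Benjamini-Hochberg adjustment over all genes tested, and genes were called where the adjusted p was under 0.05 and the fold change at least 1.5. SE is the log2 fold change over the square root of F. CPM use TMM factors over the 12 libraries. A level of 3 counts was 0.0575 to 0.0997 CPM, which covers counting error only. The procedures were tested on simulated data.

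The members and gene lists were chosen with earlier results of these data known. Named genes are the 10 members, Cxcr2, up to 5 genes of a list by mean CPM, those called between the TANs, and the 2 genes most like each lectin. Further genes (Src, Malt1, Il10, Il12b, Il23a, Cxcl1, Fcer1g, Clec4b1, Mgl2, Clec10a, Clec12b, Cd163, Ms4a7, Fcgr1, Clu, Cblb, Nfya, Oard1, Foxp4, Mocs1, Treml1, Treml2, Treml4 and Treml6) were named after their values were seen. Alternatives were other normalizations, filters and thresholds, DESeq2 1.42.0, 12 libraries in one fit, no robust estimation, a replicate block, a correction for GC content and gene length, and each library left out. The counts without the Trem genes and without the 2 libraries of a group with the most epithelial counts were chosen after seeing the data. The values of 1 gene are counted in its list and not reported here.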

Additional observations from a re-analysis of the deposited data

Results flagged for a closer look

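Trem2 in PyMT-Cxcr2-/- TAN replicate 1 (0.134 CPM, 7 counts) stood apart from the other 3 libraries of its group, which were listed at 0. A group with counts in 1 library and 0 in the other 3 stands apart in this way whatever the count. The gene lies in the stretch of chromosome 17 with few counts, and the value was not read as a level.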

How the results depend on the processing

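Compared to WT BM neutrophils, the directions of the 7 lectins held under all alternatives run. At a log2 fold change of at least 1.5, 3 members were called higher in PyMT TANs (5599 genes in all) and 1 lower in PyMT-Cxcr2-/- TANs (5753 genes). In PyMT TANs, 2 were called lower with the correction for GC content and gene length, with it and the replicate block, and with the adjusted p alone, Clec5a being the addition. The number called higher there was 4 to 5 with 1 library left out.

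Between the TANs, 365 genes were called (69.9% higher). Neither Clec4n nor Clec12a was called with the replicate block (0 higher and 0 lower, 13 genes, 30.8% higher), with the GC and length correction (76 genes, 51.3% higher), with both (31 genes, 38.7% higher) or at a log2 fold change of at least 1.5 (76 genes, 71.1% higher). This last limit was applied to the main fit, where both changes were smaller than 1.5, so that the loss there was given in advance. For Clec4n, the block gave -0.99 (adjusted p = 0.10), the correction -1.23 (adjusted p = 0.087) and both -1.10 (adjusted p = 0.19). For Clec12a, they gave 0.82 (adjusted p = 0.20), 0.86 (adjusted p = 0.15) and 0.82 (adjusted p = 0.39), all by edgeR. Library totals gave 0 higher and 2 lower (597 genes, 34.5% higher), the 12-library fit 2 lower (886 genes, 65.3% higher), no filter 594 genes (79.3% higher) and DESeq2 1035 genes (62.4% higher). Without robust estimation 0 were higher. Without the 2 PyMT TAN libraries with the most epithelial counts 0 were higher, and without the 2 such PyMT-Cxcr2-/- libraries 0 were lower (228 genes, 87.7% higher). With 1 library left out, 0 to 1 member was higher, and 23 to 513 genes were called, the fewest without PyMT TAN replicate 2.

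The log2 difference of uncalled members between the TANs turned sign for Clec4d (-0.065 with library totals), for Clec4e (0.040 and 0.073 without the 2 PyMT or the 2 PyMT-Cxcr2-/- libraries with the most epithelial counts) and for Clec7a (-0.18 with library totals, -0.0063 with the correction, and -0.047 to 0.13 with 1 library left out). Library totals moved the median of all genes to 0.53 and 0.27 against WT BM neutrophils and to -0.26 between the TANs, from 0.087, 0.086 and -0.072, and moved 10 of the group levels of the members by more than 1 SD. The correction moved these medians to -0.15, -0.40 and -0.16. Where no cause is stated, the cause was not tested. Same-numbered mice of different groups were not paired (correlations of -0.23 to 0.09 over the 3 comparisons), and the block changed no other call of a member.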
